A study of Mus musculus with 6 samples.

Results

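The tumour necrosis factor (TNF) superfamily was measured here as 69 probe sets of 40 genes in mouse liver. They were chosen by name: every probe set that the array annotation gives 1 gene symbol, where that symbol starts with Tnfsf or Tnfrsf or is Tnf, Lta, Ltb, Ltbr, Fas, Fasl, Cd40, Cd40lg, Cd27, Cd70, Eda, Edar or Ngfr. The array holds 45101 probe sets, 45037 without its controls. A further 3 probe sets of the family list several genes and were left out. Of the 40 genes, 39 code for a ligand or a receptor, and Tnfsf13os, which the name rule also takes, is a long noncoding RNA in RefSeq. By role, 25 probe sets of 14 genes belong to ligands, 12 of 7 genes to receptors with a death domain, 24 of 15 genes to other signalling receptors, 6 of 3 genes to decoy receptors and 2 to the noncoding RNA. A single probe set represents 21 of the genes, and 19 have more than 1.

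The study hybridised total liver RNA of 3 wild-type (WT) and 3 LIGHT transgenic (LIGHT Tg) samples to 6 Affymetrix arrays, so that hepatic expression can be compared between the genotypes. LIGHT is the ligand encoded by Tnfsf14. All animals were 4 to 8 weeks old and ate the high-fat diet TD88137 for 2 weeks, so the controls share the diet and no chow-fed group is part of the comparison. The WT samples are labelled B6, and no strain is named for LIGHT Tg, so strain and transgene cannot be told apart. The sources used here do not give the promoter or the cell type that drives the transgene. Groups follow the titles and source names, and the free-text descriptions of the LIGHT Tg samples call them wild-type too. Nothing in the labels says outright that each sample is a separate animal, so a p-value here covers only how much these samples vary. That variation may be technical in part, and within each genotype it includes a difference in sex-linked signals, given below. WT 1, 2 and 3 are titled 78, 30 and 31, and LIGHT Tg 1, 2 and 3 are titled 77, 34 and 35. The sources used here do not say what these numbers mean.

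The arrays titled 77 and 78 stood apart from the 4 titled 30 to 35. The RNA Xist, made from the silenced X chromosome, gave signals of 407 to 444 on the first pair and 7993 to 9714 on the others, and the Y-linked Eif2s3y gave 1037 to 1272 against 2.1 to 2.82. Both sets hold both genotypes, so for LIGHT, its receptors and the members whose groups did not overlap, the difference within each set is given beside the value over all arrays. Summed signals lay between 30979300 and 32707200 per array. The tissue label was checked against hepatocyte markers. Each of the 7 measured genes of that list, taken at its brightest probe set, lay at or above the median level of the array. The summed signal of the list's 16 probe sets was 265988 to 273764 in WT and 267350 to 271759 in LIGHT Tg.

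Ligands of this superfamily are mostly membrane-anchored proteins that act as trimers and cluster their receptors on the target cell. Receptors with a death domain recruit adaptor proteins that can lead to caspase activation or to NF-kB signalling, while the others bind TRAF adaptors, and decoy receptors bind ligand without passing on the signal. LIGHT binds the lymphotoxin beta receptor (Ltbr), which activates the alternative NF-kB pathway and is present on hepatocytes and stromal cells, and the herpesvirus entry mediator (Tnfrsf14), found mainly on lymphocytes and other leukocytes.

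Tnfsf14, the gene of the transgene, was first examined on every array. At probe set 1421588_at the WT signals were 7.7, 11.8 and 7.43 and the LIGHT Tg signals 55.7, 19.3 and 26.7. Every LIGHT Tg array lay above every WT array, and the groups did not overlap. The log2 difference, LIGHT Tg minus WT, was 1.80 ± 0.594 (moderated SE, n = 3 arrays per group) with a 95% interval of 0.42 to 3.18, and it did not pass 5% false discovery rate (FDR) over all probe sets, with an adjusted p of 0.423 in limma and 0.176 with the title-number set as a block. It was 2.85 between the arrays titled 77 and 78 and 1.27 among those titled 30 to 35. The probe set lay at the 8.88th percentile of mean level on the array, and with 37.4 added to every signal before the logarithm the difference was 0.59. At the other Tnfsf14 probe set, 1450298_at, the signals were 4.25, 3.75 and 7.83 in WT and 2.3, 3.1 and 5.6 in LIGHT Tg, which overlap. Its difference was -0.55 ± 0.543 (adjusted p = 0.942, limma), with -0.89 in the first set and -0.38 in the other. The probe sets thus gave opposite signs at dim signals. The sources used here do not say whether the transgene's RNA holds the sequence that either probe set measures, so they are a limited check on the genotype labels.

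Ltbr, the signalling receptor shared by LIGHT and the lymphotoxins, gave WT signals of 3337, 1518 and 1859 and LIGHT Tg signals of 2361, 1398 and 1340. The groups overlapped, and within each genotype the array titled 77 or 78 was the highest. The difference over all arrays was -0.36 ± 0.336 (95% interval -1.15 to 0.42, adjusted p = 0.931, limma). It was -0.50 between the arrays titled 77 and 78 and -0.30 among those titled 30 to 35, and with the set as a block the SE was 0.114 and the adjusted p 0.188. Tnfrsf14, the other receptor of LIGHT, gave 14.7, 21.3 and 17.5 in WT and 44.8, 20.2 and 23.9 in LIGHT Tg. LIGHT Tg 1 was the highest, LIGHT Tg 2 lay within the WT range and LIGHT Tg 3 just above it. Its difference was 0.66 ± 0.542 (adjusted p = 0.908, limma), made of 1.61 between the arrays titled 77 and 78 and 0.19 among the others. In whole liver RNA, fewer cells of a type and less RNA per cell cannot be told apart, here and in every result that follows.

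**Figure D1:**
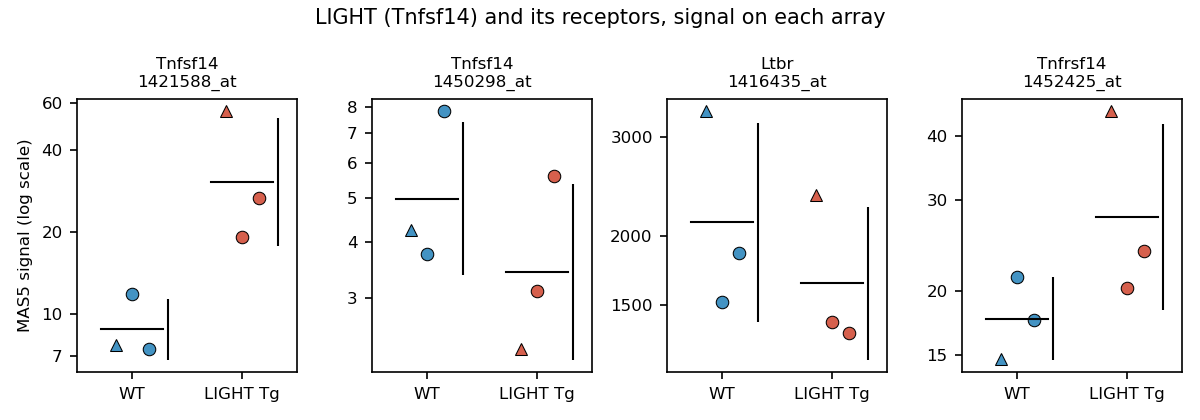
MAS5 signal on each array for the probe sets of LIGHT (Tnfsf14) and its receptors Ltbr and Tnfrsf14, in arbitrary units on a log scale that differs between panels. Triangles are the arrays titled 77 and 78, circles those titled 30 to 35, horizontal lines geometric means and vertical bars ± 1 SD of log2 signal (n = 3); only Tnfsf14 1421588_at has groups that do not overlap, with 7.43 to 11.8 in WT against 19.3 to 55.7 in LIGHT Tg.

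Over all members, none of the 69 probe sets passed 5% FDR in limma with no block, where 0.457% of all probe sets did (206 of 45037, 136 higher and 70 lower in LIGHT Tg). At an unadjusted p below 0.05, 5 of the 69 members were counted (7.25%), beside 7.92% of all probe sets. Those were Tnfrsf1b, Tnfrsf22, Tnfrsf10b, Tnfrsf11a and Tnfsf14, each at 1 of its probe sets. With the title-number set as a block, 1 member passed 5% FDR, where 2.42% of all probe sets did, and 6 had an unadjusted p below 0.05, where 15.7% of all did. With array weights in limma, 2 members passed, where 2.52% of all probe sets did. A filter at the median level of all probe sets kept 20 of the 69, of which 0 passed 5% FDR beside 1.17% of all probe sets kept. Among these counts the members' share was above that of all probe sets with array weights only, at 2.90%, and below it in the others. At each of the 5% FDR counts 1 probe set more or fewer would reverse that order, so it is not read as a trait of the family.

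The differences of the members were centred near 0. Their median was 0.02 on the log2 scale, against -0.01 for all probe sets, and their quartiles were -0.28 and 0.28, against -0.29 and 0.28. A difference above 0 was found at 37 members (53.6%), beside 49.3% of all probe sets, and 60 of the 69 lay within 1 log2 unit of 0. The intervals were wide: the whole 95% interval lay within 1 log2 unit of 0 at 13 members, so at the others a change of 2-fold or more in at least 1 direction lay inside the interval. Of the members, 28 lay below the 25th percentile of mean level. By role, the median difference was -0.11 for ligand probe sets (9 above 0 and 16 below), -0.01 for death domain receptors (5 and 7), 0.16 for other signalling receptors (16 and 8) and 0.38 for decoy receptors (5 and 1). Among the 19 genes with more than 1 probe set, 6 had the same sign at all of them and 13 had mixed signs.

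**Figure D2:**
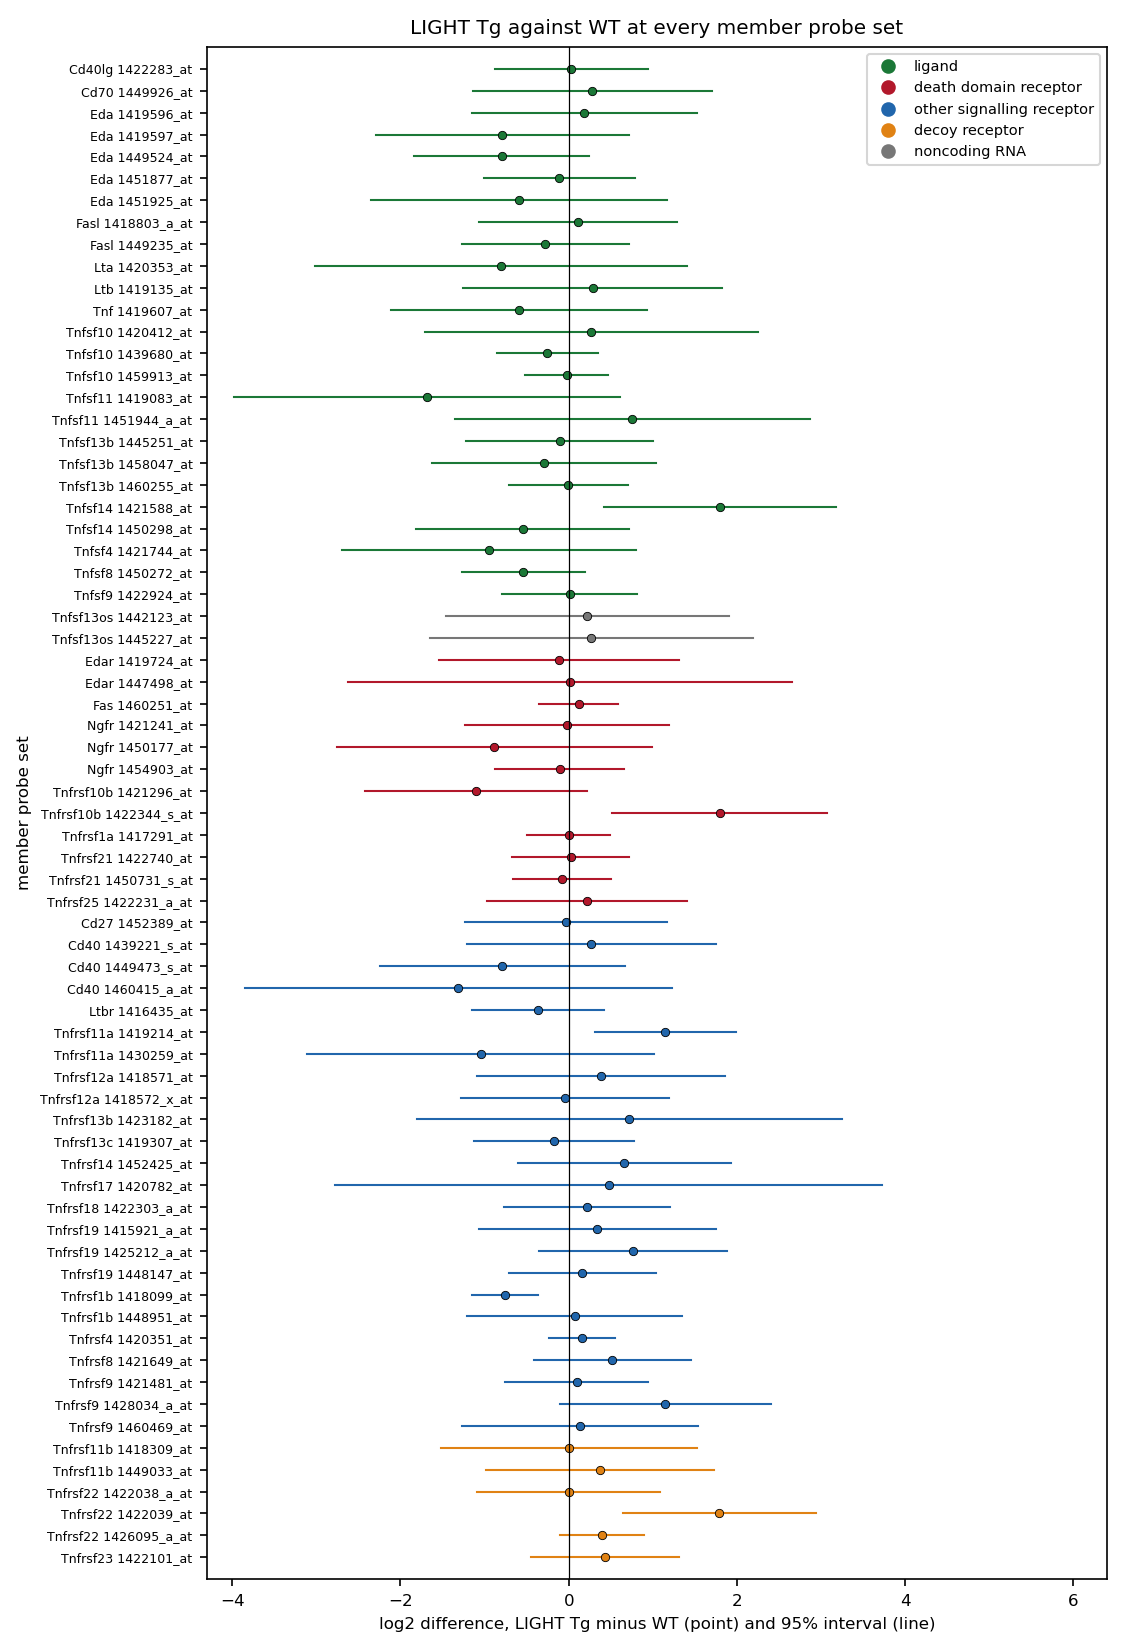
Log2 difference, LIGHT Tg minus WT, at each of the 69 member probe sets (points, coloured by role) with the moderated 95% interval from limma (lines, n = 3 arrays per group). The intervals of 5 probe sets exclude 0, those of Tnfsf14 1421588_at, Tnfrsf10b 1422344_s_at, Tnfrsf11a 1419214_at, Tnfrsf1b 1418099_at and Tnfrsf22 1422039_at, and none of them passed 5% FDR in the fit drawn, which has no block and no array weights.

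Tnfrsf1b, which encodes TNF receptor 2, a receptor without a death domain that prefers membrane-bound TNF, was the member with the smallest p. At 1418099_at the signals were 935, 1023 and 1018 in WT and 507, 627 and 630 in LIGHT Tg, with means of 992 ± 49.1 and 588 ± 70.4 (SD, n = 3 each). All LIGHT Tg arrays lay below all WT arrays, and in both title-number sets. The log2 difference was -0.76 ± 0.167 (95% interval -1.15 to -0.37), a level 1.69-fold higher in WT. The adjusted p in limma was 0.149 with no block, 0.0220 with the title-number set as a block and 0.0270 with array weights, so of these fits the call was made with the block and with array weights. The difference was -0.88 between the arrays titled 77 and 78 and -0.70 among those titled 30 to 35, where the adjusted p was 0.0777. With the block kept, leaving out any 1 of the arrays titled 30 to 35 ended the call, with adjusted p between 0.0728 and 0.103 in limma. The difference was then -0.78. Leaving out WT 1 or LIGHT Tg 1 leaves 1 array in that set, so both give the -0.70 of the arrays titled 30 to 35 and are not separate checks. The gene's other probe set, 1448951_at, did not show the same: its signals were 116, 543 and 426 in WT and 260, 359 and 333 in LIGHT Tg. These overlap, WT 1 is the lowest of all, and the difference was 0.07 ± 0.550, made of 1.16 between the arrays titled 77 and 78 and -0.48 among the others.

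Tnfrsf22 encodes a mouse decoy receptor for the death ligand TRAIL. At 1422039_at the signals were 38.5, 103 and 127 in WT and 345, 253 and 240 in LIGHT Tg. All LIGHT Tg arrays lay above all WT arrays, with the widest gap between the arrays titled 77 and 78. The difference was 1.79 ± 0.492 (95% interval 0.64 to 2.94), a level 3.46-fold higher in LIGHT Tg, with an adjusted p of 0.279 in limma and 0.105 with the block. It was 3.16 between the arrays titled 77 and 78 and 1.11 among those titled 30 to 35. At 1426095_a_at, a set for several transcripts of the gene, the signals were 329, 404 and 283 in WT and 456, 421 and 443 in LIGHT Tg, again without overlap, and the difference was 0.39 ± 0.214 (adjusted p = 0.771, limma), 0.47 and 0.35 in the title-number sets. The remaining set, 1422038_a_at, gave 9 to 11.7 in WT and 9.94 to 10.8 in LIGHT Tg. Of the other decoy receptors, Tnfrsf23, which lies in the same gene cluster, gave 150, 78.1 and 149 in WT and 162, 142 and 188 in LIGHT Tg, and its difference was 0.43 ± 0.377. Osteoprotegerin (Tnfrsf11b), the soluble decoy for RANK ligand, gave 81.2, 187 and 244 in WT and 97.2, 249 and 331 in LIGHT Tg at 1449033_at, a difference of 0.37 ± 0.582.

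Tnfrsf11a encodes RANK, the receptor of RANK ligand. At 1419214_at it gave 133, 97.2 and 209 in WT and 386, 250 and 304 in LIGHT Tg. Every LIGHT Tg array was above every WT array, in both title-number sets. The difference was 1.15 ± 0.359, 2.21-fold, with an adjusted p of 0.380 in limma and 0.155 with the block. It was 1.54 between the arrays titled 77 and 78 and 0.95 among those titled 30 to 35. Its other probe set, 1430259_at, had the opposite sign at -1.04 ± 0.886, with signals of 46.9, 86.9 and 41.6 in WT and 101, 9.5 and 20.2 in LIGHT Tg, which overlap.

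Tnfrsf10b encodes the mouse TRAIL death receptor. At 1422344_s_at, a set that may match several transcripts, the signals were 19.1, 10.1 and 11.9 in WT and 30.4, 54.4 and 58.1 in LIGHT Tg. The groups did not overlap. The difference was 1.80 ± 0.549, with an adjusted p of 0.360 in limma, 0.157 with the block and 0.0423 with array weights, where it was 2.19. It was 0.67 between the arrays titled 77 and 78 and 2.36 among those titled 30 to 35, and 0.72 over all arrays with 37.4 added to the signals. At 1421296_at the groups also did not overlap but in the opposite order, with 18.9, 8.4 and 17 in WT and 7.6, 8.1 and 4.4 in LIGHT Tg, a difference of -1.10 ± 0.565 (adjusted p = 0.734, limma), below 0 in both title-number sets. Tnfrsf9, the costimulatory receptor 4-1BB of activated T cells, gave 4.7, 6.63 and 3.13 in WT and 8.5, 15.3 and 8.2 in LIGHT Tg at 1428034_a_at. These dim signals did not overlap, and the difference was 1.15 ± 0.537 (adjusted p = 0.684, limma), 0.85 and 1.30 in the title-number sets, and 0.18 over all arrays with the added 37.4. The brighter probe sets of the gene overlapped between the genotypes. At 1421481_at the signals were 113, 213 and 205 in WT and 193, 141 and 221 in LIGHT Tg, a difference of 0.10 ± 0.365, and at 1460469_at the difference was 0.13 ± 0.603 (adjusted p = 0.999 for both, limma).

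Counted together, the groups did not overlap at 8 of the 69 members. LIGHT Tg was higher at 6 of them (8.70% of members), beside 6.7% of all probe sets, and lower at 2 (2.90%), beside 7.02% of all.

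**Figure D3:**
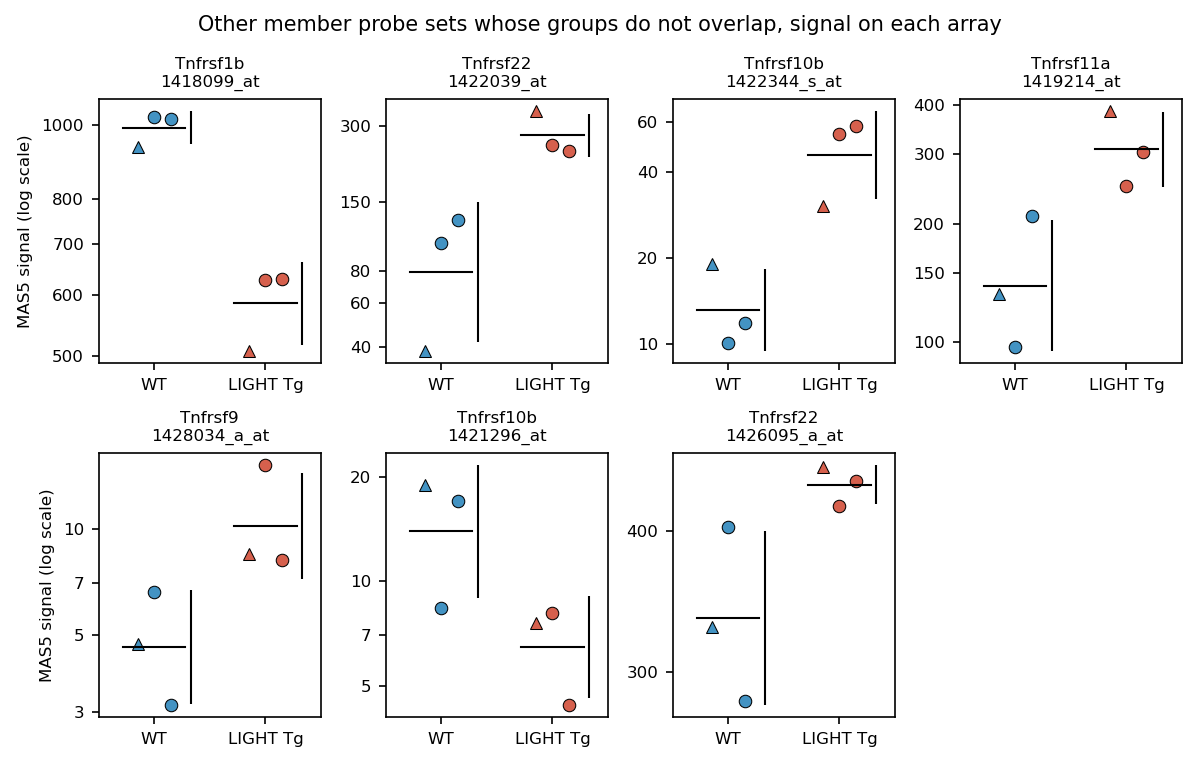
MAS5 signal on each array, in arbitrary units on log scales that differ between panels, for the 7 member probe sets other than Tnfsf14 at which WT and LIGHT Tg did not overlap. Triangles are the arrays titled 77 and 78, circles those titled 30 to 35, horizontal lines geometric means and vertical bars ± 1 SD of log2 signal (n = 3); Tnfrsf1b 1418099_at lies between 935 and 1023 in WT and between 507 and 630 in LIGHT Tg, and the Tnfrsf10b probe sets differ in opposite directions.

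The promoters of the leading members are shown because they differ in their content of CG dinucleotides, from which promoters are commonly classed. The sequences are from RefSeq with coordinates of the assembly GRCm38.p6 and run from 250 bases before to 50 bases after the gene's start, on the gene's strand, with each CG in capitals. Tnfrsf22 and Tnfrsf10b are named only.
Tnfrsf1b, chr4:145246821-145247120, minus strand: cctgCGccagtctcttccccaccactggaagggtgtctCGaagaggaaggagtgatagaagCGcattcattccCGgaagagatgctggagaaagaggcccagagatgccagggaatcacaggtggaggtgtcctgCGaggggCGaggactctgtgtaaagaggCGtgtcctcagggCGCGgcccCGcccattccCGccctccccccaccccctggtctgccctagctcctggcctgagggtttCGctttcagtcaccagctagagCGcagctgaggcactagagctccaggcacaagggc
Tnfrsf11a, chr1:105780473-105780772, plus strand: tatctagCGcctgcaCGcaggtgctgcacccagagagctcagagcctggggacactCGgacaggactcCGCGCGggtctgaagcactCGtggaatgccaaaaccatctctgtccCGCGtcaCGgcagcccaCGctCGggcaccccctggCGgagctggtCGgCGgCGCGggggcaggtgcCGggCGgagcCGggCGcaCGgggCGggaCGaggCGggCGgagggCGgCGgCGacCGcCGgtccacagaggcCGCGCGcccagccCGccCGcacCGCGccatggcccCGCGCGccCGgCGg
Tnfsf14, chr17:57194132-57194431, minus strand: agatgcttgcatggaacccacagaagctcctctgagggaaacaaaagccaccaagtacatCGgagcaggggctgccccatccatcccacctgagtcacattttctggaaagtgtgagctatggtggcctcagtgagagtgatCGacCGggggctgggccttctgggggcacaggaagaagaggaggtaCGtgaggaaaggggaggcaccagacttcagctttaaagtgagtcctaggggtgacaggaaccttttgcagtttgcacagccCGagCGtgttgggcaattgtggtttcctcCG
The Tnfrsf11a promoter was 76.7% G and C with 43 CG, the Tnfrsf1b promoter 62.7% with 13, and the Tnfsf14 promoter 55.7% with 7, beside medians of 52.7% and 7 over the 32851 promoters of the table. The letters GGNNTTTCC, a core shared by many NF-kB sites, searched on both strands, were not in these 3 windows. They were in 5 of the 35 member promoters (14.3%, from 31 genes with an entry), those of Edar, Ltb, Tnfrsf13b, Tnfrsf25 and Tnfrsf9, and in 1913 of all promoters (5.82%). A match is a description of the letters in the window and not a bound site.

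Among the ligands, no probe set passed 5% FDR with or without the block. Tnf, the prototype inflammatory cytokine of macrophages, gave 161, 42.6 and 128 in WT and 93.4, 34.3 and 79.5 in LIGHT Tg. The groups overlapped, and the difference was -0.60 ± 0.653 (adjusted p = 0.952, limma). The lymphotoxin subunits, which also signal through Ltbr, gave -0.80 ± 0.949 for Lta and 0.28 ± 0.661 for Ltb, each with overlapping groups. TRAIL (Tnfsf10), a death ligand of natural killer cells and macrophages, gave 363, 508 and 441 in WT and 433, 386 and 461 in LIGHT Tg at 1459913_at, a difference of -0.03 ± 0.210 with a 95% interval of -0.52 to 0.46. Its dimmer probe sets gave -0.25 ± 0.257 at 1439680_at and 0.27 ± 0.851 at 1420412_at, the latter with an interval of -1.71 to 2.25.

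RANK ligand (Tnfsf11) had the lowest difference of all members, and it rested on 1 array. At 1419083_at the signals were 40.3, 2.38 and 4.67 in WT and 2.12, 2.63 and 2.4 in LIGHT Tg. WT 1 alone stood high, and the difference of -1.69 ± 0.985 (adjusted p = 0.804, limma) was -4.25 between the arrays titled 77 and 78 and -0.41 among the others. The gene's other probe set, 1451944_a_at, had the opposite sign, with 2.43, 6.13 and 5.2 in WT and 2.77, 28.6 and 4.7 in LIGHT Tg, a difference of 0.75 ± 0.905. Eda, the ectodysplasin of skin appendage development, likewise had 1 high WT array at 1449524_at, with 322, 139 and 152 in WT against 76, 147 and 116 in LIGHT Tg. LIGHT Tg 1 was the lowest there. The difference was -0.80 ± 0.448 (adjusted p = 0.789, limma), with -2.09 between the arrays titled 77 and 78 and -0.15 among the others. Over the gene's 5 probe sets the differences lay between -0.80 and 0.19, 4 of them below 0. The OX40 ligand Tnfsf4 gave -0.95 ± 0.749, the CD30 ligand Tnfsf8 -0.54 ± 0.315, CD40 ligand (Cd40lg) 0.03 ± 0.389, the CD27 ligand Cd70 0.28 ± 0.611 and the 4-1BB ligand Tnfsf9 0.01 ± 0.344. Tnfsf13b, the B cell survival factor BAFF, had 3 probe sets with differences between -0.30 and -0.00421. Fas ligand (Fasl), the death ligand of cytotoxic lymphocytes, gave 0.11 ± 0.506 and -0.28 ± 0.427 at its probe sets.

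Among the death domain receptors, Tnfrsf1a, which encodes TNF receptor 1, gave 3234, 2510 and 3889 in WT and 3493, 2529 and 3565 in LIGHT Tg. The groups overlapped almost fully, and the difference was -0.00118 ± 0.211 with a 95% interval of -0.49 to 0.49. Fas, the hepatocyte-expressed receptor of Fas ligand, gave 737, 632 and 713 in WT and 676, 657 and 958 in LIGHT Tg, a difference of 0.12 ± 0.202 with an interval of -0.35 to 0.59. LIGHT Tg 3 was the highest and the other LIGHT Tg arrays lay within the WT range. Death receptor 6 (Tnfrsf21) gave 810, 501 and 442 in WT and 779, 480 and 503 in LIGHT Tg at 1422740_at, a difference of 0.02 ± 0.299, and 307, 467 and 488 against 393, 341 and 442 at 1450731_s_at, a difference of -0.08 ± 0.250. At each of these genes the genotypes overlapped. The neurotrophin receptor Ngfr, a marker of stellate cells in liver, had 3 probe sets with differences between -0.88 and -0.02. Death receptor 3 (Tnfrsf25) gave 0.22 ± 0.509, and the ectodysplasin receptor Edar -0.12 ± 0.612 and 0.02 ± 1.132.

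Among the other signalling receptors, the T cell costimulatory receptor OX40 (Tnfrsf4) gave 623, 641 and 587 in WT and 607, 716 and 750 in LIGHT Tg, a difference of 0.16 ± 0.169 with an interval of -0.24 to 0.55. CD40, the costimulatory receptor of B cells and macrophages, had 3 probe sets with differences between -1.31 and 0.27, of which 1460415_a_at gave 10.8, 110 and 136 in WT and 9.8, 53.7 and 20 in LIGHT Tg. The BAFF-binding receptors of B and plasma cells gave -0.17 ± 0.408 for Tnfrsf13c, 0.72 ± 1.084 for Tnfrsf13b and 0.48 ± 1.395 for Tnfrsf17. Cd27 gave -0.03 ± 0.513, the CD30 gene Tnfrsf8 0.52 ± 0.402 and the GITR gene Tnfrsf18 0.22 ± 0.423. The TWEAK receptor Tnfrsf12a, known to be induced in regenerating liver, gave 0.38 ± 0.633 and -0.04 ± 0.532. Tnfrsf19, known as TROY, had 3 probe sets between 0.16 and 0.76. No receptor of this role other than Tnfrsf1b passed 5% FDR in the fits with a block or array weights. The noncoding Tnfsf13os gave 0.22 ± 0.725 and 0.27 ± 0.824. Over the 49 member probe sets outside the 20 that the naming rule took, adjusted p in limma was at least 0.805, and the lowest with the block was 0.324.

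The title-number sets differed at more members than the genotypes did. This contrast was added after the data were seen. With genotype in the model, 9 of the 69 members passed 5% FDR in limma between the arrays titled 30 to 35 and those titled 77 and 78 (13.0%), where 16.3% of all probe sets did. Of these, 5 were higher and 4 lower in the arrays titled 30 to 35. Ltbr was lower there by a log2 difference of -0.89 ± 0.121 (adjusted p = 0.00727), Tnfrsf21 1422740_at by -0.73 ± 0.135 (adjusted p = 0.0167), Tnfsf4 by -1.79 ± 0.431 (adjusted p = 0.0352) and Tnfrsf19 1415921_a_at by -1.39 ± 0.355 (adjusted p = 0.0419). The higher ones were Tnfrsf11b 1449033_at at 1.48 ± 0.257 (adjusted p = 0.0141), Cd70 at 1.41 ± 0.341 (adjusted p = 0.0356), Cd40 1460415_a_at at 2.62 ± 0.635 (adjusted p = 0.0359), Tnfrsf17 at 3.35 ± 0.840 (adjusted p = 0.0395) and Tnfrsf13b at 2.51 ± 0.681 (adjusted p = 0.0492). The sets did not overlap at 24 members (34.8%), beside 39.5% of all probe sets. Sex-linked signals, printed above, part the same sets, and which of the differences between the sets these members follow was not tested. The difference between genotypes was itself compared between the sets: the interaction passed 5% FDR at 0 members, where 0.00666% of all probe sets did, and 9 members had an unadjusted interaction p below 0.05 (13.0%), beside 10.6% of all.

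**Figure D4:**
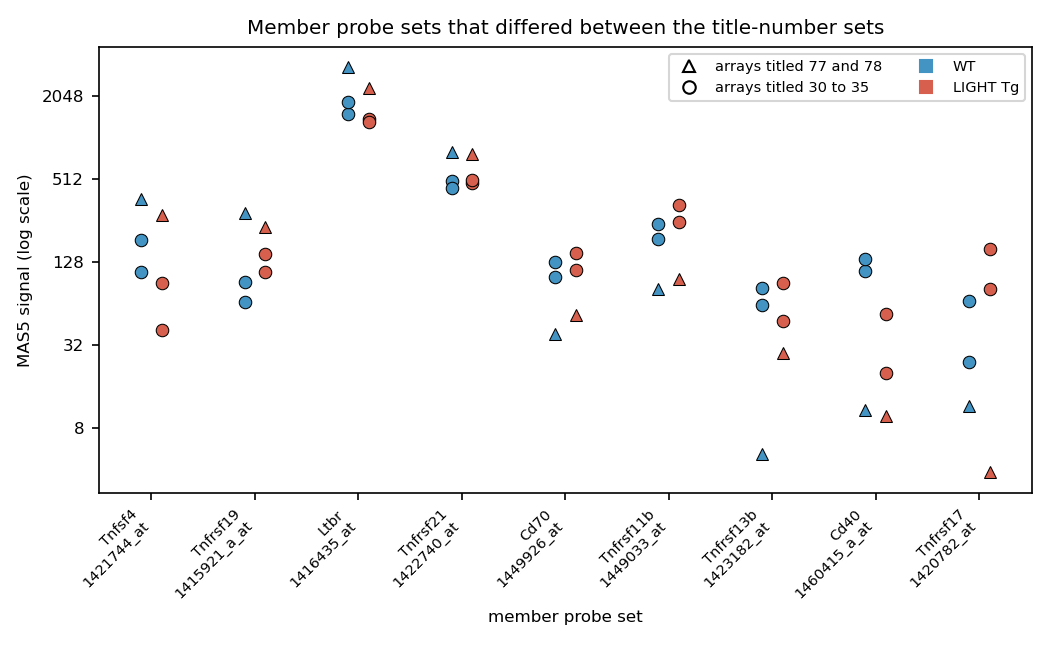
MAS5 signal on each array, in arbitrary units on a log scale, at the 9 member probe sets that passed 5% FDR between the title-number sets, with triangles for the arrays titled 77 and 78, circles for those titled 30 to 35 and colours for genotype. At Ltbr both triangles, 3337 and 2361, lie above all circles, which lie between 1340 and 1859; levels are to be compared within a probe set only.

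The rest of the pathway was covered by lists that were chosen with earlier results of these data known. The first holds 31 genes: adaptors, caspase-8 and its inhibitor, kinases, NF-kB subunits and regulators, and the family receptors Eda2r and Relt, whose symbols the name rule does not take. Of these, 27 were measured by 70 probe sets, and 0 passed 5% FDR in limma with or without the block. An unadjusted p below 0.05 was found at 4 of the 70, a share below the 7.92% of all probe sets, so the values that follow are a description. Their median difference was 0.05, with 40 above 0. The caspase-8 inhibitor Cflar gave 850, 957 and 823 in WT and 592, 578 and 423 in LIGHT Tg, without overlap, and a difference of -0.74 ± 0.195 (adjusted p = 0.253, limma). Eda2r, a receptor of an ectodysplasin isoform, gave 87.7, 70.2 and 59.1 in WT and 320, 167 and 127 in LIGHT Tg, a difference of 1.41 ± 0.442 (adjusted p = 0.382, limma). These groups did not overlap either. The kinase Map3k7, known as TAK1, gave -1.17 ± 0.488 and the NF-kB regulator Ikbkg -0.41 ± 0.174, with adjusted p of 0.610 and 0.627 in limma.

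Of 22 genes known to be induced through TNF or the lymphotoxin beta receptor, 19 were measured by 32 probe sets, and 0 passed 5% FDR in limma with or without the block. An unadjusted p below 0.05 was found at 2 of the 32, again a share below the 7.92% of all probe sets. Their median difference was 0.07, with 17 above 0. The mitochondrial superoxide dismutase Sod2 gave 1879, 1666 and 1624 in WT and 913, 1310 and 1238 in LIGHT Tg. The groups did not overlap, and the difference was -0.59 ± 0.180 (adjusted p = 0.353, limma). The cytokine signalling inhibitor Socs3 gave 0.85 ± 0.316 (adjusted p = 0.519, limma), and the chemokine Cxcl9 gave 0.81 ± 0.386 and 0.56 ± 0.300 at its probe sets, with adjusted p of 0.694 and 0.758 in limma.

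Marker lists of the cells that carry these receptors were read beside the members. B cell markers had 0 of 9 probe sets past 5% FDR, with summed signals of 1388 to 1836 in WT and 1574 to 1712 in LIGHT Tg, and T and NK cell markers 0 of 12, with 1472 to 2359 against 1677 to 1842. Kupffer cell and macrophage markers (10 probe sets), dendritic cell markers (8), neutrophil markers (4) and stellate cell and fibroblast markers (15) likewise had 0 past 5% FDR in limma, with 1 macrophage and 1 stellate probe set at an unadjusted p below 0.05 and none in the B cell, T and NK cell, dendritic cell and neutrophil lists. Their summed signals overlapped for macrophages (32434 to 38329 in WT, 22714 to 36938 in LIGHT Tg), dendritic cells (1247 to 1725 and 1572 to 1790) and neutrophils (1453 to 3557 and 661 to 4774). The stellate cell sum was 9788 to 11401 in WT and 7754 to 9696 in LIGHT Tg. These part only narrowly, and the groups overlapped at each of the list's 15 probe sets. In the plasma cell list 3 of 21 probe sets, of 2 genes, rose in LIGHT Tg at 5% FDR (0.457% of all probe sets were called), and 6 with the block (2.42% of all). The list's median was 0.35, with 15 of 21 above 0, and the summed signal was 40923 to 43550 in WT and 66960 to 71926 in LIGHT Tg. The 3 were the immunoglobulin heavy chain Ighm, at 3.62 and 4.84, and Sdc1, which hepatocytes also make, at 0.83. In WT these gave at most 414, 413 and 2381, so most of the WT sum came from other probe sets of the list. Endothelial markers had 1 of 10 probe sets past 5% FDR, von Willebrand factor (Vwf) at 2.39, and 4 with the block. The list's median was 0.28 and its lowest difference -0.51, with 8 of 10 above 0. The groups did not overlap at 4 probe sets with LIGHT Tg higher and at 1 with LIGHT Tg lower. The summed signal was 7319 to 9096 in WT and 11581 to 14394 in LIGHT Tg. Of 8 cholangiocyte probe sets, 1 passed, the stem and progenitor marker Prom1 at 4.20. The list's median was -0.26, with 3 of 8 above 0. The probe sets with the next smallest p lay below 0 without passing: Epcam at -1.17 ± 0.534, Krt7 at -1.05 ± 0.861 and Sox9 at -0.46 ± 0.753. At Epcam the signals were 177, 93.3 and 93.0 in WT and 34.5, 42.5 and 92.1 in LIGHT Tg, so the groups barely parted. In this list the summed signal was 1182 to 6569 in WT and 3077 to 6897 in LIGHT Tg. It was 6569 to 6897 on the arrays titled 77 and 78 and 1182 to 3491 on those titled 30 to 35. No signal of these lists was below 1. The plasma cell, endothelial and stellate cell sums did not overlap between the genotypes, the last by a narrow margin. Among single probe sets, 6.7% of all did not overlap with LIGHT Tg higher and 7.02% with LIGHT Tg lower. The part of these cell types in the members' values was not tested.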

How the data were processed

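Biotin-labelled cRNA from liver RNA was measured on Affymetrix arrays, 1 for each sample, per the labels. The deposited values are intensities on a linear scale, 1 per probe set, made by the authors with MAS5, per the submitters' processing notes. The sources used here give no version, scaling target or detection calls, so no probe set was called absent and dim signals carry no bound. MAS5 signals of different probe sets are not comparable as RNA amounts. Median signals lay between 175.1 and 183.1, and the number of arrays limits the precision.

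Genes were named from the array's annotation, and RefSeq (GRCm38.p6) changed 0 symbols. The 64 control probe sets were left out. The 106 values under 1 were raised to 1 before taking log2. LIGHT Tg was compared with WT over all 45037 other probe sets in limma 3.58.1 (R 4.3.3) by lmFit and eBayes with a variance trend, with no filter and no block, two-sided, with Benjamini-Hochberg adjustment and a threshold of 5% FDR. With 3 arrays in each group the smallest exact permutation p is 0.1, so none was used. The alternatives were filters at the 75th percentile and at the median level (a signal of 167.4), 37.4 (the 20th percentile of signals) added before log2, quantile normalization, a common median, eBayes without trend or robust, array weights, the title-number set as a block, the arrays titled 30 to 35 alone, each array left out, and the mean of a gene's probe sets. Leaving out arrays under the block was added after seeing the data. The fit was also run on simulated data. The condition set there concerned the mean estimated difference only. Recovered changes and false calls were also counted there, but they are not given here and the calls made here do not rest on them.

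Values on every array were to be given for the probe sets of Tnfsf14, Ltbr and Tnfrsf14, for members past 5% FDR with or without the block, and for the 10 brightest and the 10 with the smallest p. Of pathway lists, the 4 probe sets with the smallest p were to be named. Other members are given by role, and array values of those were chosen after their values were seen. Members and lists were chosen with earlier results of these data known. Plots were made in Python 3.11.15 with matplotlib 3.10.9.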

Additional observations from a re-analysis of the deposited data

How the results depend on the processing

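Over all probe sets, the 206 calls at 5% FDR became 30 in eBayes without the trend, 1135 with array weights, 1090 with the title-number set as a block and 458 on the arrays titled 30 to 35 alone, and lay between 26 (without LIGHT Tg 3) and 231 (without WT 1) when 1 array was left out, where dropping WT 2 left 53, dropping WT 3 left 50, dropping LIGHT Tg 1 left 140 and dropping LIGHT Tg 2 left 56. The cause was not tested. Among the members, the 0 calls became 2 with array weights and 1 with the block. With no block, leaving out any 1 array gave 0 calls. With the block, leaving out any 1 of the arrays titled 30 to 35 took the count from 1 to 0. The 102 pathway probe sets had 0 calls in every setting run.

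Of the 20 named member probe sets, 12 kept their direction in every setting and 8 did not. Keeping direction does not mean keeping size: with a gene's probe sets averaged, Tnfrsf11a went from 1.15 to 0.052, Tnfrsf22 from 1.79 to 0.73, Tnfrsf10b from 1.80 at 1422344_s_at to 0.35 and Tnfsf14 from 1.80 at 1421588_at to 0.63, none of which passed 5% FDR. In the same setting the difference was 0.35 for Tnfrsf10b (against -1.10 at 1421296_at), 0.63 for Tnfsf14 (against -0.55 at 1450298_at), -0.35 for Tnfrsf1b (against 0.07 at 1448951_at) and -0.029 for Tnfrsf21 (against 0.022 at 1422740_at). Tnfrsf1b 1448951_at was -0.32 with array weights and -0.48 on the arrays titled 30 to 35 alone. Tnfrsf1a was 0.019 after quantile normalization and 0.00213 with a common median. Leaving out 1 array gave ranges that cross 0 for Fas (-0.056 to 0.22), Tnfrsf21 1450731_s_at (-0.29 to 0.041) and 1422740_at (-0.20 to 0.28), Tnfrsf1b 1448951_at (-0.61 to 0.50), Tnfsf10 1459913_at (-0.15 to 0.088) and Tnfrsf1a (-0.17 to 0.16).

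No paired analysis was possible because the title numbers pair no WT sample with a LIGHT Tg sample by number. The title-number set, which holds both genotypes, was the block. The main limits are 3 arrays per group, dim signals at many members with no detection calls, probe sets of 1 gene that differ in sign, and no strain named for LIGHT Tg.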

Other observations

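The genes next to the 5 leading members were read after the data were seen, as 3 coding genes on each side in the RefSeq order of GRCm38.p6. They gave 43 probe sets of 21 genes, of which 1 passed 5% FDR in limma, where 0.457% of all probe sets did, and 3 with the title-number set as a block, where 2.42% did. Cars, a transfer RNA synthetase gene near Tnfrsf22, rose by 1.72 ± 0.203 at 1452394_at (adjusted p = 0.0217, limma) and gave 0.94 at its other probe set (adjusted p = 0.791, limma). Gpr108, near Tnfsf14, gave -1.04 ± 0.192, with an adjusted p in limma of 0.0880 with no block and 0.0102 with the block. Rnf152, near Tnfrsf11a, gave -1.68 ± 0.292, with an adjusted p in limma of 0.0744 with no block and 0.0243 with the block.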
